A study of Rattus norvegicus with 200 samples.

Results

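The comparison set HFD ad libitum against chow ad libitum in the dark phase, the active phase of nocturnal rats, in bulk RNA-seq libraries labelled as brain microglia. It held 35 of the 200 libraries of the series, namely every library of these 2 groups collected at Zeitgeber time (ZT) 14, 18 or 22, where ZT counts the hours from lights on. There were 18 HFD libraries, 6 at each time, and 17 chow libraries, 5 at ZT14 and 6 at each of ZT18 and ZT22. All rats were male wild-type Wistar rats, an outbred stock, with food present at all hours, and in the labels the groups differed by diet alone, which was HFD, a high-fat diet, or chow. The labels give neither ages nor time on diet, and whether each library is from its own rat is not said. The p-values thus reflect how libraries vary, and that variation may be technical. Genes with a mean of at least 1 CPM over the 35 libraries (counts per M counts of the scaled library, M being 10 to the power of 6) were tested, 14105 of the 20361 in the count table.

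Microglia are the resident macrophages of the brain. They survey tissue through receptors such as P2ry12 and Csf1r, tag synapses and debris with complement, present antigen, and digest what they engulf in lysosomes. Taking up lipid and myelin debris brings cholesterol and fatty acid handling into play through the liver X receptor and the desaturase Scd, and many of these functions follow the daily rhythm of feeding.

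The labelled cell type was only partly borne out by its markers. Microglial genes were present, with a median of 250 CPM of Csf1r in HFD and 325 CPM in chow, and 646 CPM of Cst3 in HFD and 894 CPM in chow. Transcripts of myelin and neurons were far more abundant. Summed oligodendrocyte genes, which make myelin, had a median of 21700 CPM in HFD and 20800 CPM in chow, and Slc17a7, a glutamate transporter of neurons, had 995 CPM in HFD and 963 CPM in chow. The libraries are therefore described as brain preparations that contain microglial RNA, and in such bulk samples fewer cells of a type and less RNA per cell cannot be told apart. Depth was 3.78 to 9 M counts per library in HFD (median 7.27 M) and 5.05 to 9.4 M in chow (median 7.33 M).

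Some chow libraries stood apart, and they were told by the number in their title. HFD and chow libraries carry separate numbered series, so diet cannot be told apart from anything that went with the numbering. Among the chow libraries, 9 had title numbers below 100 and 8 had numbers above 100, a division made after the values were seen. The 9 low-numbered libraries made up 2 of 5 chow libraries at ZT14, all 6 at ZT18 and 1 of 6 at ZT22, so time and title number were mixed in chow. Summed over 23 homeostatic microglia genes, HFD libraries ran from 1990 to 3230 CPM (median 2610), chow libraries numbered above 100 from 1860 to 2990 CPM (median 2595), and chow libraries numbered below 100 from 3070 to 5550 CPM (median 3470). Every low-numbered chow library thus lay above every high-numbered one, while HFD covered about the same range as the high-numbered set. The same held for brain endothelium genes, whose sum was 716 to 879 CPM in HFD, 721 to 836 CPM in chow numbered above 100 and 910 to 1210 CPM in chow numbered below 100. Genes of cerebellar granule neurons went the other way, at 9480 to 10700 CPM in HFD, 9750 to 11400 CPM in chow numbered above 100 and 7420 to 9850 CPM in chow numbered below 100. Chow libraries 52 and 53 at ZT14 and 79 at ZT18 had the 3 highest microglia sums. The gene groups below are therefore given with all 17 chow libraries and, where their call rests on it, without those 3 and against the high-numbered chow libraries only, which exist at ZT14 and ZT22. The part of title number in any result was not tested apart from these values.

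**Figure D1:**
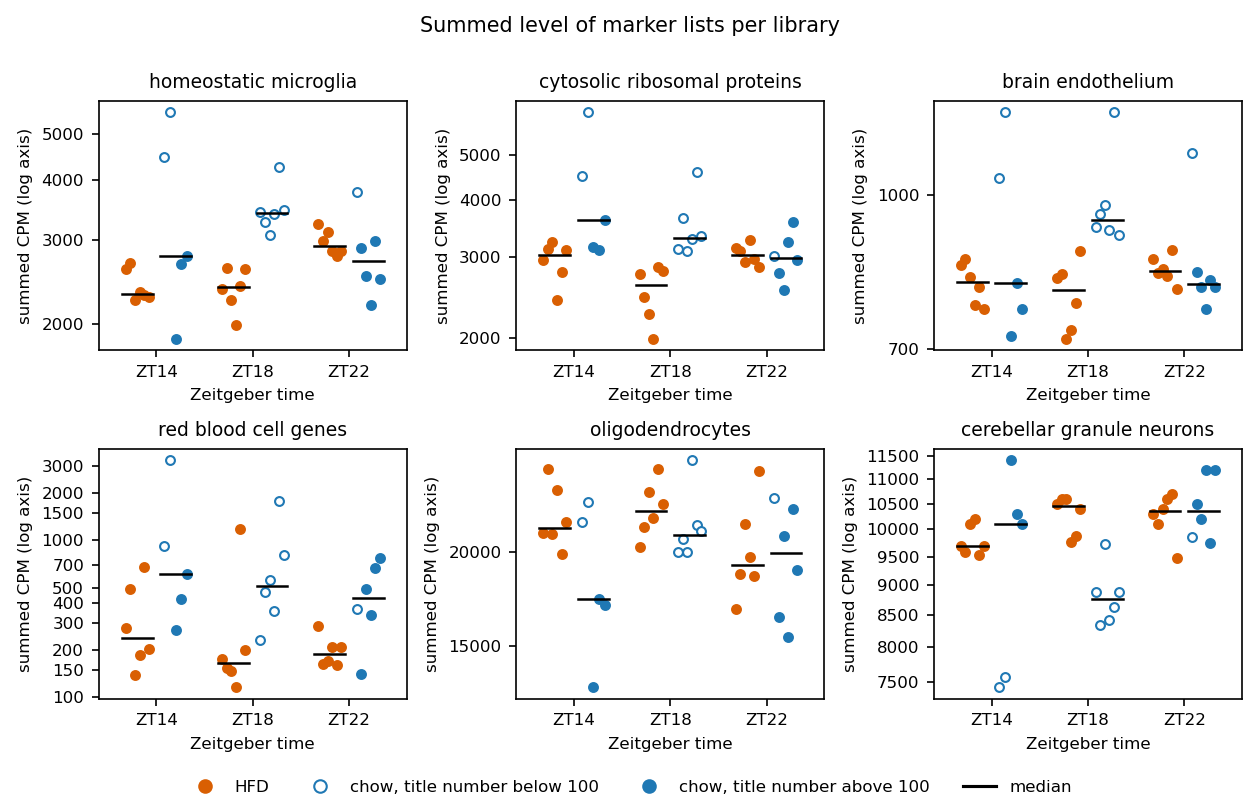
Summed CPM of 6 gene lists (log axis) by Zeitgeber time in HFD libraries (orange, left at each time) and chow libraries (blue, right at each time), with open points for chow title numbers below 100 and black lines for medians of each diet and time. Homeostatic microglia sums of the open chow points start at 3070 CPM, above all filled chow points, which end at 2990 CPM.

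Across all 14105 genes, diet was associated with many small differences. With time as a factor, 2734 genes (19.4%) passed an adjusted p under 0.05 in edgeR's quasi-likelihood test with Benjamini-Hochberg adjustment, of which 1350 (9.57%) were higher and 1384 (9.81%) lower in HFD. The median size of the log2 fold change (log2FC) of called genes was 0.218, and the median of all genes tested was -0.01. Only 78 called genes differed by 1.5-fold or more, 12 of them higher and 66 lower in HFD. On the authors' FPKM values with limma the split was 903 higher and 1777 lower. Without chow libraries 52, 53 and 79 the count was 991 (539 higher, 452 lower). Against the high-numbered chow libraries alone it was 0, with 1849 genes at an unadjusted p under 0.05, and against the low-numbered ones alone it was 6442. It was also 0 without ZT18 (2052 at an unadjusted p under 0.05), 0 with marker scores of oligodendrocytes, neurons, astrocytes and endothelium as terms (1840), and 0 with libraries of neighbouring title numbers summed into units (3466), so that each count of called list members below is 0 in these 3 fits. Each marker score was the mean level of the members of its own list. Loss of calls in the oligodendrocyte, neuron, astrocyte and endothelium lists was therefore favoured in advance in that fit. With marker scores the median log2FC was -0.09 for homeostatic microglia and -0.19 for cytosolic ribosomal proteins. DESeq2 called 2996 genes with all libraries. Counts of called members in each list below are to be read beside the shares over all genes, 9.57% higher and 9.81% lower.

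Among genes with a mean of at least 5 CPM that rose in HFD with the same sign at each time, the largest log2FC belonged to Tet1, a dioxygenase that oxidises methylcytosine in DNA. Tet1 ran from 4.43 to 9.77 CPM in HFD (median 7.23) and from 2.64 to 8.69 CPM in chow (median 4.54). At ZT18 every HFD library lay above every chow library, while at ZT14 and ZT22 the groups overlapped. The log2FC was 0.56 ± 0.11 (standard error, SE; adjusted p = 0.0016), with 0.74 at ZT14, 0.72 at ZT18 and 0.27 at ZT22, and it was 0.29 ± 0.13 against high-numbered chow. Slc29a2, an equilibrative nucleoside transporter, had 18.3 to 30.2 CPM in HFD (median 23.9) and 11.1 to 23.4 CPM in chow (median 16.2). All 18 HFD libraries lay above the chow median, and 9 above the highest chow library. Its log2FC was 0.52 ± 0.09 (adjusted p = 0.0012), and 0.39 ± 0.11 against high-numbered chow.

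Zbtb16, a zinc finger transcription factor induced by glucocorticoids, rose by 0.45 ± 0.14 (adjusted p = 0.024). It had 27.5 to 80 CPM in HFD (median 44.4) and 19.3 to 72.5 CPM in chow (median 36.1), and 16 of 18 HFD libraries lay above the chow median within widely overlapping ranges. Its value against high-numbered chow was 0.58 ± 0.18. Hhip, a decoy receptor for hedgehog ligands, rose by 0.46 ± 0.10 and Gng8, a G protein gamma subunit, by 0.42 ± 0.09, and against high-numbered chow their values were 0.35 ± 0.13 and 0.38 ± 0.13. Klhl15, an adaptor of a ubiquitin ligase, rose by 0.41 ± 0.12, with 0.18 ± 0.12 against high-numbered chow. Of the 12 largest rises, 4 had their largest value at ZT18 and values of 0.07 or less against high-numbered chow. These were the fucosyltransferase Fut9 (0.48 in all, 1.12 at ZT18, -0.09 against high-numbered chow), the activin receptor Acvr1c (0.45, 0.99 and 0.02), the NMDA receptor subunit Grin2a (0.43, 0.84 and 0.01) and Fam206a (0.44, 0.79 and 0.07).

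The 12 largest falls included 4 haemoglobin genes. Hba2 ran from 19.5 to 166 CPM in HFD (median 28.2) and from 21.8 to 558 CPM in chow (median 82.9), and Hba1 from 47.2 to 488 CPM in HFD (median 79.1) and from 61.8 to 1550 CPM in chow (median 226). The ranges overlapped, and a single HFD library, number 101 at ZT18, held the highest HFD value of both. The log2FC was -1.53 ± 0.33 for Hba2 and -1.47 ± 0.33 for Hba1 (adjusted p = 0.0029 and 0.0039), and -1.01 ± 0.31 and -0.96 ± 0.32 against high-numbered chow. Hbb-b1 and Hbb fell too, with log2FC of -1.52 and -1.32. These genes share sequence, so the division of reads among them is uncertain. Myh9l1, also close in sequence to another gene, had the lowest log2FC (-2.08 ± 0.76, adjusted p = 0.05 in edgeR and 0.068 in DESeq2). It had 0 to 55.9 CPM in HFD (median 0) and 0 to 102 CPM in chow (median 20), and 15 of 18 HFD libraries lay below the chow median.

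The other large falls included genes of vessels, choroid plexus and myeloid cells. Cldn5, a tight junction protein of brain endothelium, had 3.05 to 8.35 CPM in HFD (median 6.73) and 2.65 to 25.5 CPM in chow (median 7.89). Above every HFD library lay 8 chow libraries. Its log2FC was -0.88 ± 0.22 (adjusted p = 0.0076), with -1.62 at ZT18, and it was 0.20 ± 0.17 against high-numbered chow. Vwf, the clotting factor made by endothelium, fell by 0.73 ± 0.17 on the log2 scale and had -0.05 ± 0.16 against high-numbered chow. Ttr, the thyroid hormone carrier secreted by choroid plexus, fell by 0.80 ± 0.24 and had 0.07 ± 0.29 against that set. The NADPH oxidase subunit Cyba fell by 0.60 and the myeloid transcription factor Cebpa by 0.59, with -0.08 and -0.09 against that set. Capns1, the small calpain subunit, and Alkbh6 fell by 0.96 and 0.83 and were at 0 CPM in at least 1 HFD library each.

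Of 23 genes that define homeostatic microglia 13 fell and 0 rose, where 9.81% of all genes fell and 9.57% rose. All 23 had a log2FC below 0, with a median of -0.30 beside -0.01 over all genes. Without chow libraries 52, 53 and 79 the number that fell was 0 and the median -0.16. Against high-numbered chow the median was 0.05, and 0 members passed. Cst3, the protease inhibitor cystatin C and the most abundant gene of the list, had 391 to 897 CPM in HFD (median 647) and 483 to 2090 CPM in chow (median 895). In HFD, 17 of 18 libraries lay below the chow median, while 8 chow libraries lay above the highest HFD library. Its log2FC was -0.57 ± 0.15 (adjusted p = 0.0087), with -0.92 at ZT14, -0.88 at ZT18 and 0.08 at ZT22, and it was 0.08 ± 0.09 against high-numbered chow.

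Other members followed Cst3 in part. Trem2, a lipid-sensing receptor of microglia, had 8.83 to 18.8 CPM in HFD (median 14.3) and 11 to 37.8 CPM in chow (median 18.7), a fall of 0.51 ± 0.13 on the log2 scale (adjusted p = 0.0077). Tmem119, a membrane protein specific to microglia in brain, had 32.7 to 51.9 CPM in HFD (median 39.4) and 25 to 81.5 CPM in chow (median 49.6), a fall of 0.39 ± 0.11, and the P-selectin ligand Selplg fell by 0.41 ± 0.11. Against high-numbered chow the log2FC was 0.01 for Trem2, 0.03 for Tmem119 and 0.03 for Selplg. P2ry12, the ADP receptor that guides microglial processes, had a log2FC of -0.21 (adjusted p = 0.082), and Sall1, the transcription factor that keeps microglial identity, had -0.01 (adjusted p = 0.93).

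**Figure D2:**
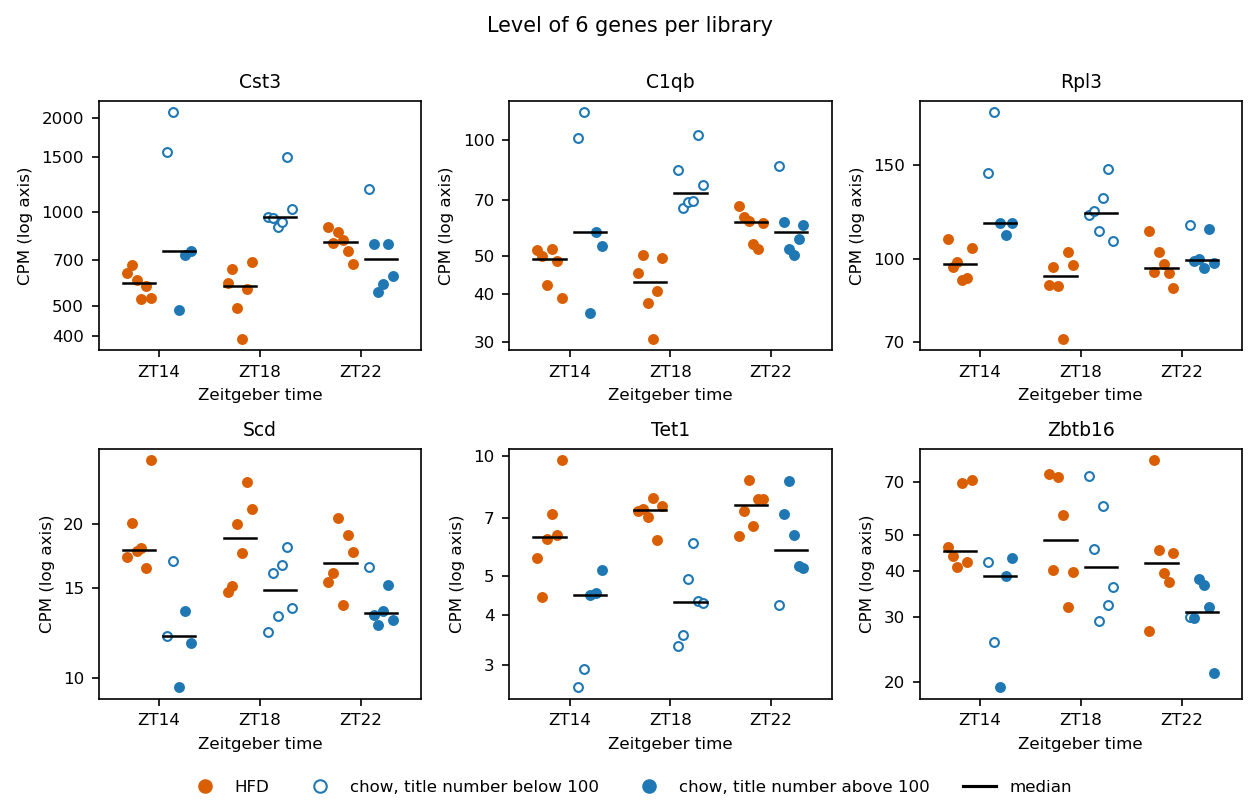
CPM (log axis) of 6 genes by Zeitgeber time in every HFD library (orange) and chow library (blue, open for title numbers below 100), with black lines for medians of each diet and time. Cst3 and C1qb were higher in the open than in the filled chow points, whereas the Scd median was higher in HFD than in chow at each time.

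Disease-associated microglia are the state that gathers around plaques and damaged myelin. Of 24 of their genes tested, 7 fell and 0 rose (median -0.18), with 0 that fell without the 3 chow libraries and a median of 0.07 against high-numbered chow. Apoe, the lipid carrier that marks this state, had 212 to 472 CPM in HFD (median 344) and 253 to 1160 CPM in chow (median 554). All 18 HFD libraries lay below the chow median. Its log2FC was -0.61 ± 0.16 (adjusted p = 0.0088), with -0.89 at ZT14, -1.05 at ZT18 and 0.10 at ZT22, and 0.16 ± 0.10 against high-numbered chow. The cathepsin Ctsz fell by 0.43 and the receptor kinase Axl by 0.45 on the log2 scale, with 0.07 and -0.13 against that set.

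Of 16 complement genes 8 fell and 0 rose (median -0.26). C1qb, a chain of the C1q complex that tags synapses and debris, had 30.5 to 67.5 CPM in HFD (median 50.1) and 35.7 to 118 CPM in chow (median 66.8), with 17 of 18 HFD libraries below the chow median. C1qb fell by 0.51 ± 0.12 on the log2 scale (adjusted p = 0.0048), C1qc by 0.54 ± 0.13 and C1qa by 0.46 ± 0.13. Against high-numbered chow the log2FC was 0.04 for C1qb, 0.01 for C1qc and 0.10 for C1qa. C3, the central component, fell by 0.43 and had -0.06 against that set. Without the 3 chow libraries 1 of 16 members fell.

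Of 20 genes of major histocompatibility complex (MHC) class I and the immunoproteasome, 9 fell and 0 rose, and all 20 had a log2FC below 0 (median -0.33). The median was -0.16 without the 3 chow libraries, with 2 that fell, and -0.10 against high-numbered chow, where 0 passed. RT1-A1, a classical class I heavy chain, fell by 0.41 ± 0.09 (adjusted p = 0.0025) and RT1-A2 by 0.46 ± 0.10, with -0.13 ± 0.07 and -0.10 ± 0.09 against high-numbered chow. RT1-CE10, another class I chain, fell by 0.44 ± 0.12 and had -0.28 ± 0.12, and the proteasome activator Psme1 fell by 0.41 ± 0.11 and had -0.17 ± 0.12 against that set. Class I genes resemble one another, so reads may be divided wrongly among them. Of 11 class II genes only RT1-DMb, a peptide loading chain, fell (by 0.37).

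Lists of inflammatory genes had shares of falls on both sides of the 9.81% of all genes. Of 23 genes of NF-kB signalling and cytokines 4 fell (median -0.19), namely Tgfb1, Icam1, Nfkbie and Nlrp3, at -0.50, -0.37, -0.30 and -0.41, and without the 3 chow libraries 0 did, while at ZT18 alone 5 fell and 1 rose. Of 29 interferon response genes 1 fell, Ifit2 (-0.66), and of 19 Toll-like receptor genes 2 fell, the adaptor Myd88 (-0.45) and the chaperone Unc93b1 (-0.27). In the phagosome and lysosome list 10 of 48 fell and 2 rose (median -0.07), with falls of 0.23 in the protease Lgmn, 0.54 in the antibody receptor Fcgr3a and 0.36 in the cathepsin Ctsh, but 0 fell and 2 rose without the 3 chow libraries. Immediate early genes, which switch on within minutes of a stimulus, had 9 of 36 lower and 0 higher (median -0.15), with 1 lower without the 3 chow libraries. Ier5 fell by 0.38 ± 0.08 (adjusted p = 0.0019), Jund by 0.43, Jun by 0.26 and Junb by 0.53, and their values against high-numbered chow were -0.21, -0.07, -0.16 and -0.35.

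The list with the largest share of called genes encoded cytosolic ribosomal proteins. Of 78 tested, 62 fell and 0 rose, and all 78 had a log2FC below 0 (median -0.31). Across times 43 fell at ZT14, 58 at ZT18 and 0 at ZT22, with medians of -0.48, -0.49 and 0.01. Without the 3 chow libraries 11 fell (median -0.16), and against high-numbered chow the median was -0.06 and 0 passed. Many ribosomal protein transcripts start with an unbroken run of C and T, the terminal oligopyrimidine tract through which growth signals control their translation. The 30 bases around the RefSeq start of the 4 members with the smallest adjusted p are shown for that reason, 10 bases before the start and 20 from it, from RefSeq on GRCr8, read on the gene's strand, with capitals for the unbroken run of C or T that holds the start base. The windows lie at chr7:113507971-113508000 (minus strand) for Rpl3, chr7:10068096-10068125 (minus) for Rps15, chr8:129163610-129163639 (plus) for Rpl14 and chr20:6390523-6390552 (plus) for Rpl10a.
Rpl3: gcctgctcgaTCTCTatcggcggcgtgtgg
Rps15: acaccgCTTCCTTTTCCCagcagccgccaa
Rpl14: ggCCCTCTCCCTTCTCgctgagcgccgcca
Rpl10a: cttctgCCTTCTTTTCCggttcccgcagcc

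The runs were 5 bases long in Rpl3, 12 in Rps15, 14 in Rpl14 and 11 in Rpl10a. A run of at least 8 bases of C or T across the start base, on the gene's strand, was present in 28 of the 59 tested ribosomal protein genes with a RefSeq promoter (47.5%) and in 490 of all 11030 tested genes with one (4.44%). Ribosomal protein genes with the run fell in 23 of 28 cases (median -0.34), and those without it in 21 of 31 (median -0.28). Of the 462 other genes with the run 51 fell (11.0%, median -0.02), near the 9.81% of all genes. Rpl3, a core protein of the large subunit with a short run, had 71 to 113 CPM in HFD (median 96.8) and 96.4 to 188 CPM in chow (median 116). All 18 HFD libraries lay below the chow median, and 8 lay below the lowest chow library. Its log2FC was -0.32 ± 0.06 (adjusted p = 0.0017), and -0.12 ± 0.05 against high-numbered chow. Rps15, a small subunit protein with a long run, had 24.4 to 44.3 CPM in HFD (median 32.3) and 32.7 to 95 CPM in chow (median 44.1), with a log2FC of -0.54 ± 0.11 (adjusted p = 0.0017) and -0.14 ± 0.08 against high-numbered chow. Rpl14 fell by 0.38 ± 0.08 and Rpl10a by 0.34 ± 0.07.

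Transcript length moved with the diet difference over the whole table. Length here is what the authors' counts and FPKM values imply. Genes were put in 10 groups of equal size by length. In the shortest group, with a median of 619 bases, the median log2FC was -0.157, and 23.6% of genes fell and 1.06% rose. In the longest group, with a median of 7033 bases, it was 0.096, and 1.84% fell and 27.5% rose. Ribosomal protein genes had a median length of 292 bases, and with an offset that levels length within each library, chosen after seeing the data, 21 of 78 fell (median -0.12). The median log2FC of the shortest group was -0.245 at ZT14, -0.273 at ZT18 and 0.028 at ZT22.

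**Figure D3:**
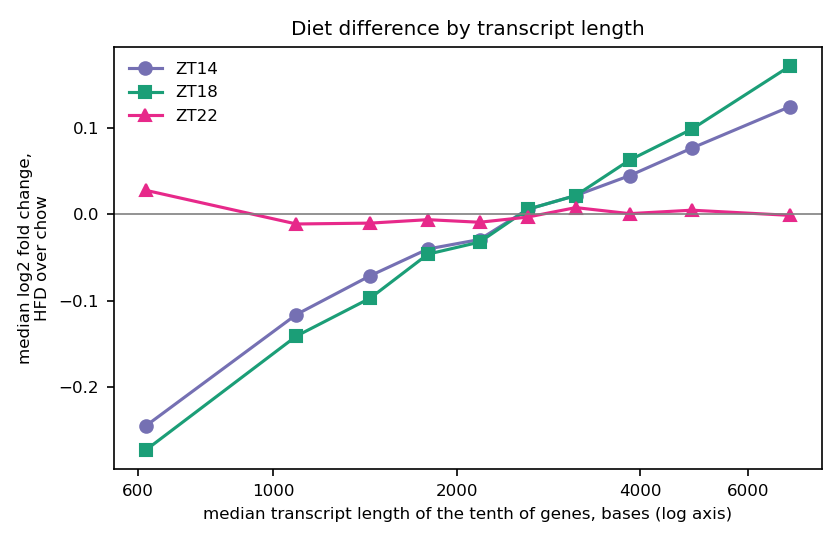
Median log2FC of HFD over chow at each time against the median transcript length (bases, log axis) of 10 equal groups of genes. At ZT14 and ZT18 the value climbs steadily with length, to 0.125 and 0.172 in the longest group, and at ZT22 it stays between -0.011 and 0.028.

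Of 35 complex I subunits of the mitochondrial respiratory chain 15 fell and 0 rose (median -0.18), and of 39 subunits of complexes II to V 14 fell and 0 rose (median -0.20). Without the 3 chow libraries the numbers that fell were 3 and 1. With length offsets 3 fell and 0 rose in complex I (median -0.06), and 3 fell and 3 rose in complexes II to V (median 0.00). Against high-numbered chow the medians were -0.04 and 0.03. Ndufb10 had a log2FC of -0.39 ± 0.09 and Ndufa2 one of -0.57 ± 0.14, and Atp5e of the ATP synthase had -0.61 ± 0.14 (adjusted p = 0.0041), all lower in HFD. Their values against high-numbered chow were -0.20, -0.27 and -0.30. Cox5b of cytochrome oxidase fell by 0.41 and Uqcrc1 of complex III by 0.25. Of 72 mitochondrial ribosomal proteins 16 fell and 0 rose, led by Mrps34 (-0.48 ± 0.10, and -0.29 ± 0.11 against high-numbered chow). In that list 5 fell without the 3 chow libraries, and 3 fell and 2 rose with length offsets (median -0.04). Proteasome subunits fell in 15 of 31 cases (median -0.15), with Psmc3 at -0.22 ± 0.04 and Psmd4 at -0.28 ± 0.05 (both adjusted p = 0.0012), and with 6 that fell without the 3 chow libraries and 6 with length offsets. Genes of the antioxidant NRF2 list fell in 9 of 28 cases. Among them were Hmox1, which breaks down haem (-0.42), and Gpx4, which reduces lipid peroxides (-0.25). The list also holds Keap1, the repressor of NRF2, which is 1 of the 9 (-0.19). Without the 3 chow libraries 1 of the 28 fell, and with length offsets 3 did.

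Glycolysis and glucose uptake genes were mixed, with 11 of 32 lower and 3 higher (median -0.14). Pfkl, the liver isoform of phosphofructokinase, had 34.7 to 46.1 CPM in HFD (median 40.4) and 40.9 to 66.4 CPM in chow (median 47.7). Its log2FC was -0.30 ± 0.05 (adjusted p = 0.0012), with -0.37 at ZT14, -0.34 at ZT18 and -0.20 at ZT22, and -0.19 ± 0.05 against high-numbered chow. The lactate dehydrogenase chain Ldhb fell by 0.36, whereas Pfkfb2, which makes an activator of phosphofructokinase, rose by 0.18 and the monocarboxylate transporter Slc16a7 by 0.33. Without the 3 chow libraries 1 member fell and 2 rose. In fatty acid oxidation and PPAR targets 8 of 41 fell and 0 rose (median -0.09), and 1 fell without the 3 libraries and 1 with length offsets. The brain carnitine palmitoyltransferase Cpt1c fell by 0.12 ± 0.03 (adjusted p = 0.016) and had -0.11 ± 0.04 against high-numbered chow, while Acads, Ech1 and Acadvl fell by 0.20, 0.19 and 0.12 and had values between -0.05 and -0.02 against that set.

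Of 23 fatty acid synthesis genes 5 rose and 0 fell, where 9.57% of all genes rose and 9.81% fell. Without the 3 chow libraries 4 rose. The list as a whole did not lean to either side, with 12 members above 0, 11 below 0 and a median of 0.02. Falls appeared in other fits, with 3 higher and 2 lower at ZT18, 6 higher and 1 lower with length offsets, and 8 higher and 7 lower against low-numbered chow. Scd, the desaturase that makes oleic from stearic acid, had 13.9 to 26.6 CPM in HFD (median 17.6) and 9.6 to 18 CPM in chow (median 13.5). All 18 HFD libraries lay above the chow median, 7 above the highest chow library, and 11 chow libraries below the lowest HFD library. Its log2FC was 0.39 ± 0.08 (adjusted p = 0.0024), with 0.59 at ZT14, 0.31 at ZT18 and 0.28 at ZT22. It was 0.49 ± 0.10 against high-numbered and 0.29 against low-numbered chow. Scd2, the main desaturase of brain and myelin, had 1980 to 2990 CPM in HFD (median 2410) and 1530 to 2500 CPM in chow (median 1950). It rose by 0.25 ± 0.06 (adjusted p = 0.0046), with 0.32 ± 0.08 against high-numbered and 0.20 against low-numbered chow. The elongases Elovl5 and Elovl7 rose by 0.21 ± 0.05 and 0.26 ± 0.08, with 0.19 and 0.33 against high-numbered chow.

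Targets of the liver X receptor (LXR) and lipid efflux genes split, with 5 of 18 higher and 3 lower (median 0.00). The cholesterol exporter Abca1 had 114 to 190 CPM in HFD (median 143) and 82.8 to 170 CPM in chow (median 123), a rise of 0.27 ± 0.07 (adjusted p = 0.0079). Its value was 0.30 ± 0.11 against high-numbered and 0.25 against low-numbered chow. Abcg1, which passes cholesterol to lipoproteins, had 349 to 397 CPM in HFD (median 378) and 284 to 384 CPM in chow (median 330), a rise of 0.19 ± 0.03 (adjusted p = 0.0012), with 0.11 ± 0.04 against high-numbered chow. Lpcat3, which loads phospholipids with polyunsaturated fatty acids, rose by 0.16. Apoe, also a target of the receptor, fell, as described above. Without the 3 chow libraries 4 members rose and 0 fell. In cholesterol synthesis 3 of 25 rose, Sc5d, Hsd17b7 and Sqle (0.17, 0.23 and 0.14), and Fdps fell by 0.16, while 2 rose and 0 fell without the 3 chow libraries. In sphingolipid synthesis 3 of 31 rose and 1 fell, against 2 and 0 without those libraries. The share that rose in both lists was near the 9.57% of all genes. Cers2, the ceramide synthase for very long chains found in myelin, rose by 0.18 ± 0.04 (adjusted p = 0.0034) and had 0.20 ± 0.06 against high-numbered and 0.15 against low-numbered chow. Cers6 rose by 0.40 but had 0.10 against high-numbered chow.

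Of 25 clock genes 2 rose and 3 fell (median 0.01), a share of calls near the 19.4% of all genes, and 1 rose and 1 fell without the 3 chow libraries. Clock itself, the activating partner of Bmal1, had 142 to 187 CPM in HFD (median 159) and 101 to 175 CPM in chow (median 139), and all 18 HFD libraries lay above the chow median. It rose by 0.22 ± 0.05 (adjusted p = 0.0033) and had 0.08 ± 0.05 against high-numbered chow. Wee1, a mitotic kinase under clock control, rose by 0.20, and the period gene Per2 had -0.06 (adjusted p = 0.75). Of 26 glucocorticoid response genes 3 rose and 2 fell, a share of calls also near the 19.4% of all genes. Without the 3 chow libraries 0 rose and 1 fell of the 25 tested. Besides Zbtb16, the glucocorticoid receptor Nr3c1 rose by 0.16, while the transcription factor Cebpb had 1.25 to 5.25 CPM in HFD (median 2.54) and 1.65 to 11.7 CPM in chow (median 4.74) and fell by 0.95 ± 0.21 (adjusted p = 0.0032), with -0.27 ± 0.24 against high-numbered chow. Mertk, a receptor for engulfing dead cells, fell by 0.31.

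Stress and signalling lists held calls in both directions. Of 24 heat shock genes 0 passed in edgeR, and the members with the smallest adjusted p were Dnaja4 (-0.13, adjusted p = 0.13) and Hsf2 (0.10, adjusted p = 0.16). Of 36 genes of endoplasmic reticulum stress 3 rose and 3 fell, a share of calls below the 19.4% of all genes. Among them were the chaperone Canx (0.21) and the degradation factor Sel1l (0.14), which rose, and Ddit3 (-0.36) and Creld2 (-0.23), which fell. Insulin and FOXO signalling had 5 of 33 higher and 3 lower, where 9.57% of all genes rose and 9.81% fell. The insulin-like growth factor receptor Igf1r was at 0.19, the mTOR complex subunit Rictor at 0.21 and Pik3cd at -0.32. Against high-numbered chow their values were 0.06, 0.08 and 0.02, and the list median was -0.02. Without the 3 chow libraries 2 members rose and 0 fell, whereas with length offsets 1 rose and 5 fell. Splicing factors of the SR group had 9 of 33 higher and 2 lower (median 0.05), and 4 higher and 2 lower without the 3 chow libraries. With length offsets 7 were higher and 1 lower (median 0.03). Srsf1, the founding member, rose by 0.19 ± 0.04 (adjusted p = 0.0023), Srsf7 by 0.16 and Srsf2 by 0.14, and their values against high-numbered chow were 0.08, 0.13 and 0.10.

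Markers of other cells are given here beside these groups. Of 7 red blood cell genes 5 fell (median -1.41), and their sum was 116 to 1190 CPM in HFD (median 194) and 140 to 3250 CPM in chow (median 491). The median was -0.86 without the 3 chow libraries, with 2 that fell, and -0.99 against high-numbered chow, where 0 passed (Hba2 adjusted p = 0.21, Hbb-b1 0.19). Of 20 brain endothelium genes 10 fell (median -0.35), 1 of them without the 3 libraries, and the median was 0.10 against high-numbered chow. Besides Cldn5 and Vwf these were led by the organic anion transporter Slco1c1 (-0.51) and the drug exporter Abcb1a (-0.57), at 0.06 and 0.11 against that set. Of 10 pericyte and smooth muscle genes 3 fell, Myh11, Vtn and Pdgfrb (-0.34, -0.47 and -0.46). Of 20 astrocyte genes 4 fell and 1 rose (median -0.27, and 0.11 against high-numbered chow), with falls in Itih3 (-0.55), Gjb6 (-0.53) and Acsbg1 (-0.49) and a rise in Atp1b2 (0.18).

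Of 20 oligodendrocyte genes 5 rose and 0 fell (median 0.11), with 2 that rose without the 3 chow libraries and a median of 0.25 against high-numbered and -0.01 against low-numbered chow. Mobp, a basic protein of myelin, had 351 to 760 CPM in HFD (median 549) and 276 to 627 CPM in chow (median 454) and rose by 0.25 ± 0.08 (adjusted p = 0.033). Gjc3, a connexin of oligodendrocytes, had 15.2 to 30.7 CPM in HFD (median 20.5) and 12 to 24 CPM in chow (median 15.5) and rose by 0.42 ± 0.09 (adjusted p = 0.0036), with 0.28 ± 0.11 against high-numbered and 0.50 against low-numbered chow. Ermn, another oligodendrocyte gene, rose by 0.22. Summed oligodendrocyte markers were 16800 to 25800 CPM in HFD (median 21700) and 13200 to 26500 CPM in chow (median 20800). The lipid genes Scd2 and Cers2, which oligodendrocytes also express, rose in the same libraries, and the part of myelin RNA in their rise was not tested.

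Of 28 general neuron genes 5 fell and 2 rose, against 1 and 0 without the 3 chow libraries. The neurofilaments Nefm, Nefh and Nefl fell by 0.37, 0.31 and 0.31 and the deubiquitinase Uchl1 by 0.34, at -0.19, -0.09, 0.03 and 0.10 against high-numbered chow. Of 16 cerebellar granule neuron genes 4 rose and 0 fell (median 0.11), Cbln1, Etv1, Reln and Kcnd2 (0.18, 0.19, 0.18 and 0.22), but the median was -0.10 against high-numbered chow, and 0 rose without the 3 chow libraries. Glutamate and GABA receptor genes had 9 of 40 higher and 1 lower (median 0.11, and 0.00 against high-numbered chow). Without the 3 chow libraries 3 were higher and 0 lower, and with length offsets 6 were higher and 1 lower (median 0.07). The metabotropic receptor Grm3 rose by 0.30 ± 0.07 (adjusted p = 0.0051) and had 0.27 ± 0.11 against high-numbered and 0.34 against low-numbered chow. The GABA receptor subunit Gabrb2 rose by 0.32 but had -0.01 ± 0.07 against high-numbered chow, and the AMPA receptor subunit Gria2 rose by 0.23 and had 0.04.

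Genes passed the test at ZT14 and ZT18, and none did at ZT22. At ZT14, 845 genes (5.99%) passed, 409 higher (2.9%) and 436 lower (3.09%). At ZT18, 2782 (19.7%) passed, 1448 higher (10.3%) and 1334 lower (9.46%). At ZT22, 0 of 14105 (0%) passed in edgeR and 0 in DESeq2, with 632 at an unadjusted p under 0.05. Every one of the 506 genes called at both ZT14 and ZT18 had the same sign at both, which is 59.9% of the ZT14 and 18.2% of the ZT18 calls. Genes that fell at ZT18 (median -0.48) had a log2FC below 0 in 96.7% of cases at ZT14 and 49% at ZT22, where 51.8% and 50% of all genes did. The chow libraries at ZT18 all had low title numbers and 5 of 6 at ZT22 had high ones, so time and title number cannot be told apart here. At ZT14, where both kinds occur, 5 genes passed against the 3 high-numbered libraries and 4524 against the 2 low-numbered ones. Those 2 were libraries 52 and 53, which were among the chow libraries with the highest microglia sums, so they may not stand for low numbers in general.

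The ZT14 count rested on single libraries. It was 16 without chow library 53, 118 without chow library 52, 2066 without chow library 135 and 1424 without chow library 136. Among HFD libraries it was 95 without number 6, 345 without number 96, 459 without number 2 and 558 without number 7. Rises at ZT14 were led by Slc29a2 (0.75), Tet1 (0.74), the centrosome protein Nedd1 (0.64) and the transcription factor Creb5 (0.64). Creb5 had 53.2 to 93.1 CPM in HFD (median 67.5) and 29.8 to 71.4 CPM in chow (median 46.6) over all times, with all 18 HFD libraries above the chow median. It had 0.40 ± 0.10 against high-numbered and 0.44 against low-numbered chow. Falls at ZT14 were led by Hba2 (-1.89), Sccpdh (-1.69), Fcgr3a (-1.13) and Atp5e (-1.11). Rises at ZT18 were led by Fut9 (1.12), Pigm (1.04), Acvr1c (0.99) and the sialyltransferase St8sia3 (0.91), and falls by Rps26 (-2.39), Cldn5 (-1.62), Ttr (-1.39) and the metallothionein Mt3 (-1.28). Rps26 and Sccpdh were at 0 CPM in at least 1 HFD library each.

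**Figure D4:**
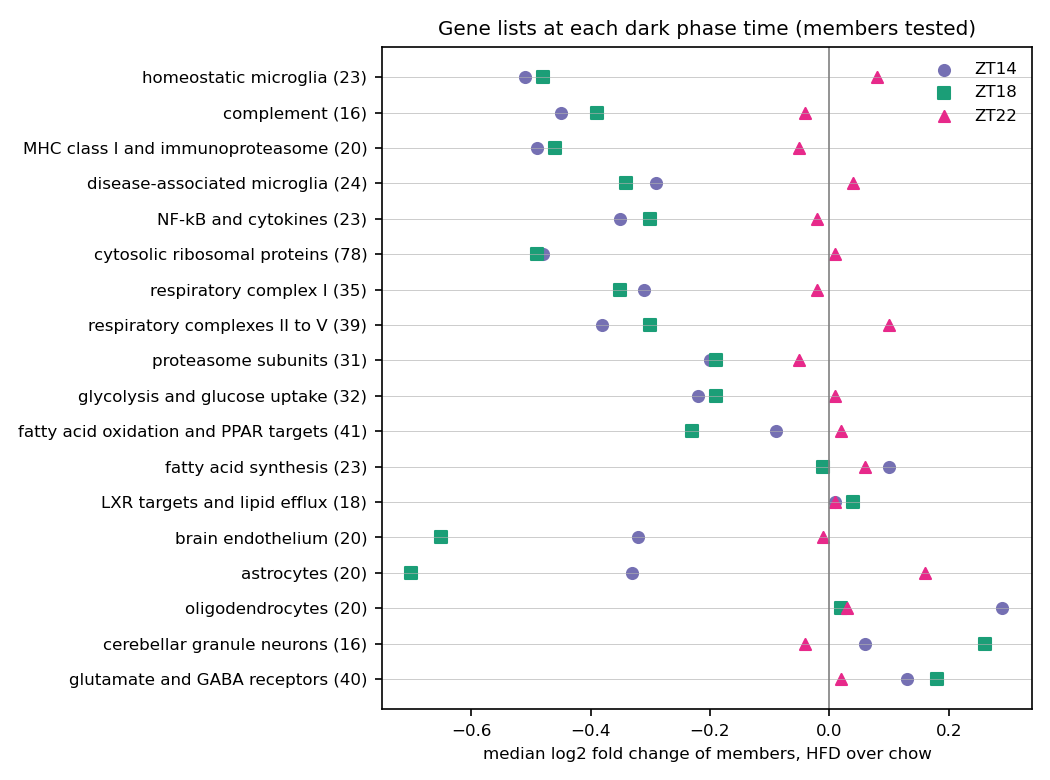
Median log2FC of HFD over chow for 18 gene lists at ZT14 (circles), ZT18 (squares) and ZT22 (triangles), with the number of members tested in brackets. Homeostatic microglia stood at -0.51, -0.48 and 0.08 and cytosolic ribosomal proteins at -0.48, -0.49 and 0.01, whereas fatty acid synthesis stayed between -0.01 and 0.10.

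A test of the difference among times passed for 1 of 14105 genes (0.00709%), with 2416 at an unadjusted p under 0.05 and 92 called by DESeq2. That gene was Adap2, which binds phosphoinositides and is expressed in microglia. At ZT14 Adap2 averaged 7.11 ± 0.459 CPM in HFD (SD, n = 6) and 10.9 ± 2.24 CPM in chow (SD, n = 5). At ZT18 it averaged 7.21 ± 0.778 CPM in HFD and 13.6 ± 1.48 CPM in chow, and at ZT22 10.1 ± 1.45 CPM in HFD and 7.95 ± 2.02 CPM in chow (SD, n = 6 each). Its log2FC was -0.62 at ZT14, -0.92 at ZT18 and 0.34 at ZT22 (edgeR adjusted p = 0.0051 for the interaction). Among the next by p, without passing, were Nrgn (-0.81, -0.93 and 0.56), Ppp1r1b (-0.61, -0.58 and 0.33), U2af1 (-0.29, -0.51 and 0.08) and Nbas (0.09, 0.39 and -0.10). With chow libraries 52, 53 and 79 left out 418 genes passed.

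The light phase of the same 2 groups, ZT2, ZT6 and ZT10 with 33 libraries, gave 2 called genes of 14186 (0.0141%), with 1597 at an unadjusted p under 0.05. The precision was alike, with a median SE of 0.069 in the dark and 0.073 in the light. Most chow libraries of the light phase had title numbers above 100, while 9 of those in the dark had numbers below 100. Phase and title number were thus mixed in chow, and the part of title number in the difference between phases was not tested. A direct test of the difference between phases passed for 0 of 14137 genes (0%), with 1239 at an unadjusted p under 0.05 and 1 called by DESeq2, so the dark phase was not shown to differ from the light phase in single genes. Genes called in the dark had the same sign in the light in 89.1% of 2732 cases, beside 67.7% of all 14046 genes with a value in both phases. Their median log2FC in the light was 0.079 for genes higher and -0.079 for genes lower in the dark. Scd had 0.39 ± 0.08 in the dark and 0.35 ± 0.10 in the light. Cst3 had -0.57 ± 0.15 in the dark and -0.15 ± 0.10 in the light (difference -0.42 ± 0.19, edgeR adjusted p = 0.56), and Rpl3 had -0.32 ± 0.06 and -0.05 ± 0.07 (difference -0.27 ± 0.10, adjusted p = 0.55). Smallest in p, without passing, were Xrn2 (0.19 in the dark and -0.03 in the light), Commd1 (-0.46 and 0.18), Mtmr12 (0.14 and -0.06), Btbd7 (0.25 and 0.02), Wdr4 (-0.36 and -0.02) and Slc29a2 (0.52 and 0.07).

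Set against each kind of chow library, the gene lists differed in how their medians moved. The 2 sets cover unlike times. Low-numbered chow had 6 of 9 libraries at ZT18, and high-numbered chow had 0 at ZT18 and 5 of 8 at ZT22. Title number and time thus cannot be told apart in these medians. Lists of homeostatic microglia, complement, cytosolic ribosomal proteins, respiratory complexes, endothelium and astrocytes had medians between -0.74 and -0.37 against low-numbered chow and between -0.06 and 0.11 against high-numbered chow. Disease-associated microglia stood at -0.34 and 0.07 and mitochondrial ribosomal proteins at -0.22 and -0.04 against low- and high-numbered chow. Cerebellar granule neuron genes stood at 0.33 and -0.10, oligodendrocyte genes at -0.01 and 0.25, and red blood cell genes at -1.59 and -0.99. Of 172 named genes called for diet, 137 had the same sign against high-numbered chow as in all. The test that picked these genes held the same HFD and chow libraries, so a shared sign was favoured in advance. It is given without the share over all genes and supports nothing. Examples among these 137 follow, and their shared sign likewise supports nothing. Rises against both sets included the desaturases, the efflux gene Abca1, Slc29a2, Hhip, Gng8, Gjc3, Zbtb16, Creb5, Grm3 and Cers2. Others were the inward rectifier channel Kcnj10 (0.26 and 0.24 against high- and low-numbered chow) and the channel subunit Kcnq3 (0.27 and 0.50). Falls against both sets included Pfkl (-0.19 and -0.41), the potassium channel subunit Kcnab2 (-0.21 and -0.34) and Hba2 (-1.01 and -1.84). None of these passed against high-numbered chow alone, and the reason was not tested. That comparison held 12 HFD and 8 chow libraries, and the one with low-numbered chow held 18 and 9.

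**Figure D5:**
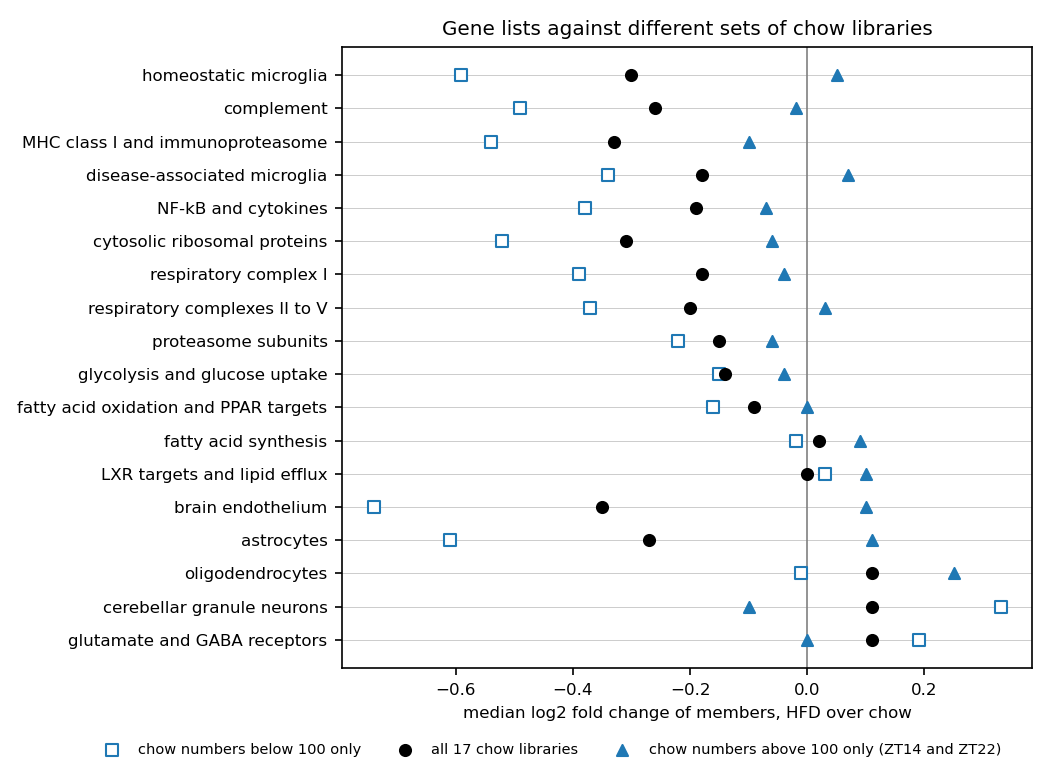
Median log2FC of HFD over chow for 18 gene lists with chow libraries numbered below 100 only (open squares), all 17 chow libraries (black circles) and those numbered above 100 only (triangles, ZT14 and ZT22). Homeostatic microglia stood at -0.59, -0.30 and 0.05, and LXR targets and lipid efflux at 0.03, 0.00 and 0.10.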

How the data were processed

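RNA-seq libraries came from a strand-specific kit, per the labels' protocols. Per the submitters' processing notes, the genome build was Rnor_6.0. Which aligner and counter were used is not given in the sources used here. Files deposited by the authors hold expected counts per gene (20361 genes, 7.91% of entries in these 35 libraries not whole) and FPKM values (17611 genes), and no sample was pooled. Counts had been foreseen, so expected counts were rounded before each count test. Depth was 3.78 to 9.4 M counts per library (M is 10 to the power of 6). Of 595 pairs of libraries the most alike had a chi-square over degrees of freedom of 2.81, so none was counted as a repeat.

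After TMM scaling, edgeR 4.0.16 (R 4.3.3) gave quasi-likelihood tests for the effect of diet with time as a factor, for diet at each time with a mean per diet and time, and for the interactions with time and with phase (68 libraries at 6 times). Benjamini-Hochberg adjusted p under 0.05 was the threshold, two-sided. Alternatives used DESeq2 1.42.0, limma 3.58.1 on log2(FPKM + 1) for genes with a mean FPKM of at least 0.5, other filters, further terms and left-out libraries. The edgeR steps were tested on simulated counts.

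The comparison, the 48 gene lists and the rule for named genes were chosen with earlier results of these data known. Lists carry counts and medians and no test. Named genes were the 12 largest log2 fold changes in each direction among called genes that average 5 CPM or more, have a symbol and keep 1 sign at all 3 times, up to 4 members of each list with the smallest adjusted p (up to 2 where none passed), the 4 largest at each time and direction, and 6 per interaction by p. Members chosen by p or size are shown for that reason and support nothing. Other genes named are markers, and some genes that the rule named are not reported here. No genome of the build was used here. Start site sequences are from RefSeq promoters on GRCr8, matched by gene identifier. Where a gene had several promoters, the one with the longest run was taken, for the counts and for the sequences shown.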

Additional observations from a re-analysis of the deposited data

Results flagged for a closer look

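Single libraries stood out from the others of their diet and time in 11 of 138 tests of the gap between the most extreme library and its neighbour, relative to the whole range, over the genes with the largest differences. Chance gives about 1 in 20 for each test, but the tests are not independent. Some flags share a library or related genes, so an excess over chance was not shown. HFD library 96 at ZT14 was high in Hhip, at 16.3 CPM beside 10.1 to 12.1 CPM in the other HFD libraries of that time (gap 0.63 of the range on the log2 scale), and in Grin2a at 64 CPM beside 27.3 to 35.2 CPM (0.703). HFD library 101 at ZT18 was high in haemoglobin, with Hba2 at 166 CPM beside 19.5 to 30.3 CPM (0.795), Hba1 at 488 CPM beside 47.2 to 83.4 CPM (0.757) and Hbb at 463 CPM beside 32.5 to 64.4 CPM (0.743). It was also the HFD library of the lowest depth, 3.78 M counts. HFD library 20 at ZT22 was high in Myh9l1 at 0.559 CPM beside 0 to 0.131 CPM (0.649), and HFD library 21 at ZT22 was low in Cldn5 at 6.01 CPM beside 7.41 to 8.35 CPM (0.637).

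In chow, Fam206a was high in library 80 at ZT18, at 16 CPM beside 12.8 to 13.8 CPM in the other chow libraries of that time (0.66), and low in library 25 at ZT22, at 11 CPM beside 18.3 to 21.2 CPM (0.771). Library 25 is the 1 low-numbered chow library at ZT22. Gng8 was low in chow library 135 at ZT14, at 12.6 CPM beside 17.5 to 19.2 CPM (0.779), and Alkbh6 was low in chow library 147 at ZT22, at 2.38 CPM beside 5.97 to 9.7 CPM (0.646). The diet difference in Adap2 differed among times (adjusted p = 0.0051 in edgeR), with a log2FC of -0.62 at ZT14, -0.92 at ZT18 and 0.34 at ZT22, while against high-numbered chow, at ZT14 and ZT22, its value over both times was 0.08.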

How the results depend on the processing

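The count of 2734 genes called for diet stayed within 1.5 times under DESeq2 (2996), upper quartile scaling (2783), no filter (2381), a mean of at least 5 CPM (2758), FPKM with limma (2680), depth as a term (1995) and length offsets (1980), and ran from 1993 to 3460 when each library was left out in turn. It was 370 without ZT14, 0 without ZT18 (2052 at an unadjusted p under 0.05), 4238 without ZT22, 1718 without HFD title numbers above 46, 0 with 4 marker scores of other cell types as terms (1840) and 0 with runs of title numbers summed to 6 HFD and 7 chow units (3466). Chosen after seeing the data, it was 991 without chow libraries 52, 53 and 79, 464 with a microglia score as a term, 0 with only chow title numbers above 100 (1849) and 6442 with only those below 100. At ZT14 the count of 845 was 1306 with DESeq2, 10 with only libraries of that time, 417 without HFD numbers above 46, 14 without the 3 chow libraries, 410 with length offsets, 5 and 4524 with chow numbers above and below 100, and 16 to 2066 with single libraries left out. At ZT18 the count of 2782 was 1585 without HFD numbers above 46 and 1866 to 2778 with single libraries left out. At ZT22 it was 8 with only the chow library numbered below 100 and 0 with each library left out. The interaction with time, 1 gene, became 92 with DESeq2, 2 at 5 CPM, 0 with marker scores (869 at an unadjusted p under 0.05) and 418 without the 3 chow libraries, and that with phase became 1 with DESeq2. Where no cause is given it was not tested.

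Of 172 named genes called for diet, 0 were called under all 17 alternatives. Ermn turned to -0.02 with marker scores, but the oligodendrocyte score holds Ermn itself. With only chow numbers above 100, 137 kept their sign without passing and 35 turned: Fut9 to -0.09, Cldn5 0.20, Ttr 0.07, Trem2 0.01, Cst3 0.08, Selplg 0.03, Tmem119 0.03, Apoe 0.16, Ctsz 0.07, C1qc 0.01, C1qb 0.04, C1qa 0.10, RT1-DMb 0.03, Unc93b1 0.06, Lgmn 0.01, Ctsh 0.02, Gpx4 0.02, Hmox1 0.01, Sesn3 -0.01, Pik3cd 0.02, Gjb6 0.11, Acsbg1 0.11, Nefl 0.03, Uchl1 0.10, Reln -0.04, Kcnd2 -0.02, Aldoc 0.07, Slco1c1 0.06, Abcb1a 0.11, Vtn 0.05, Pdgfrb 0.06, Gabrb2 -0.01, St8sia3 -0.12, Mt3 0.19 and Adap2 0.08. No paired analysis was possible because the labels carry no replicate number shared between diets. Depth limits genes under 1 CPM, which were not tested.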

Other observations

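Of 21 T and NK cell genes 4 fell and 0 rose, and all 21 had a log2FC below 0 (median -0.35). Without chow libraries 52, 53 and 79, 0 passed. Prf1, the pore-forming protein of killer cells, had 1.85 to 9.27 CPM in HFD (median 3.04) and 1.5 to 14.4 CPM in chow (median 5.28), and fell by 0.86 ± 0.24 on the log2 scale (edgeR adjusted p = 0.013). Tbx21, the transcription factor T-bet, fell by 0.74 ± 0.24 and had -0.74 ± 0.29 against high-numbered chow, and the granzymes Gzmk and Gzmm fell by 0.81 and 0.56. Of 5 B cell genes 1 fell, the receptor chain Cd79b (-0.72). Of 7 neutrophil genes 0 passed, with Csf3r at -0.29 (adjusted p = 0.062). Of 11 genes of border-associated macrophages 1 fell, the scavenger receptor Stab1, by 0.40. Their sum was 69.9 to 111 CPM in HFD (median 83.1) and 57.4 to 124 CPM in chow (median 102). Of 16 genes of meningeal fibroblasts 0 passed, with Fn1 at -0.41 (adjusted p = 0.071) and Igfbp2 at -0.52 (adjusted p = 0.11), and of 9 genes of ependyma and choroid plexus 1 fell, Ttr. Of 17 genes of Purkinje cells and Bergmann glia 1 fell, Aldoc, by 0.25. Of 14 oligodendrocyte precursor genes 1 rose, Tnr, by 0.32 ± 0.09, with 0.06 ± 0.11 against high-numbered chow. Over all genes 9.57% rose and 9.81% fell.

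Potassium channels had 12 of 71 genes higher and 3 lower (median 0.02), where 9.57% of all genes rose and 9.81% fell. There were 3 higher and 1 lower without chow libraries 52, 53 and 79. With length offsets 5 were higher and 4 lower (median -0.01). Kcnq3, a subunit of the M current, had 27.2 to 53.4 CPM in HFD (median 36.8) and 18.3 to 46.9 CPM in chow (median 27.9) and rose by 0.37 ± 0.08 (adjusted p = 0.0021). Kcnab2, an auxiliary subunit, had 73.3 to 103 CPM in HFD (median 86.9) and 79.1 to 133 CPM in chow (median 107) and fell by 0.28 ± 0.05 (adjusted p = 0.0016), with -0.21 ± 0.07 against high-numbered chow. Of 33 presynaptic genes 1 rose, Vamp1 (0.20), and 2 fell, Ppfia3 (-0.14, and -0.17 ± 0.05 against high-numbered chow) and Stx1a (-0.22). Of 19 hypoxia genes 2 rose, Pfkfb3 (0.15) and Bnip3l (0.13), and Ankrd37 fell by 0.38, with -0.55 ± 0.18 against high-numbered chow. Of 23 cell cycle genes 2 rose, the cyclins Ccne2 (0.28) and Ccna2 (0.40). In the presynaptic, hypoxia and cell cycle lists the shares that rose and fell were near or below the 9.57% and 9.81% of all genes.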
